A study of Mus musculus with 10 samples.

Results

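Among 22548 genes counted in osteocytes of mice with and without myeloma, 7 with few reads had been picked out because they were higher in the libraries from myeloma-bearing mice. They are the protein-coding genes Kcna4 and Map3k19, the pseudogenes Klra13-ps and RP23-458O23.1, and the genes BC106179, Gm13431 and C530050E15Rik, which recent annotation lists as noncoding. They were found by their symbols in the count table, and all 7 were present. Their difference between the groups is what chose them, so it is described below with no test.

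The RNA came from bone of C57BL/6 male mice aged 8 weeks by the labels, with 1 library per mouse. Mice 6 to 10 (MM, n = 5) carried Vk12598, a murine myeloma line of the Vk*MYC model injected into the femur, and were examined at week 6. Mice 1 to 5 (No MM, n = 5) received no myeloma cells, and the study's methods describe control mice as given the same volume of PBS. The labels give no modified gene in the host mice of either group, and all tumors came from 1 transplanted line. Osteocytes were released from bone pieces by repeated digestion with collagenase and EDTA once the marrow had been removed, with no sorting step in the protocol, so other cells of bone could be carried along.

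Osteocytes are cells of the osteoblast lineage that lie within mineralized bone and direct its remodeling. Myeloma is a malignancy of plasma cells that grows in marrow and destroys bone nearby. A gene with few reads in such a preparation may be transcribed weakly in many cells or strongly in rare ones, and bulk RNA cannot separate fewer cells of a type from less RNA per cell. Of the 7 genes, Kcna4 encodes a potassium channel subunit known from neurons and heart muscle, and Klra13-ps belongs to the Ly49 receptor family, best known from natural killer (NK) cells. Map3k19 encodes a protein kinase of the MAP3K family that has been described in human lung epithelium and macrophages. For the other 4 no cell type of expression can be named here with certainty.

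Libraries held between 31099174 and 39466332 reads counted on genes. Levels are given as CPM, counts relative to library size, after scaling by the TMM method of edgeR, where a floor of 3 reads amounts to 0.0709 to 0.114 CPM. In 2 libraries labelled No MM, 3 and 4, 26.8% and 29.3% of reads fell on immunoglobulin genes, against 0.65% to 3.98% in the other 8, and summed plasma cell markers were 9265 and 9283 CPM. The other No MM libraries held 583 to 1093 CPM of these markers and the MM libraries 695 to 1270 CPM, so plasma cell RNA did not separate the groups in the order of the labels. Each fold change of the 7 genes is therefore given with and without these 2 libraries. Osteocyte markers were present in every library, with a summed level of 308 to 2420 CPM in No MM and 382 to 1700 CPM in MM.

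Together the 7 genes received 60, 150, 126, 123 and 250 reads in No MM libraries 1 to 5, and 553, 466, 590, 603 and 635 in MM libraries 6 to 10. As a share of all counted reads this was 1.93 to 6.83 ppm in No MM and 14.1 to 19 ppm in MM. Every MM library was above every No MM library for this sum, and No MM 5 came nearest. For 6 of the 7 genes taken alone the groups did not overlap either, and Gm13431 was the exception. Among all 16186 genes that passed the filter on low counts, 118 (0.729%) had every MM library above every No MM library, and 110 (0.68%) had every one below. The 7 were selected on this contrast, so nothing is read from the difference between these shares.

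**Figure D1:**
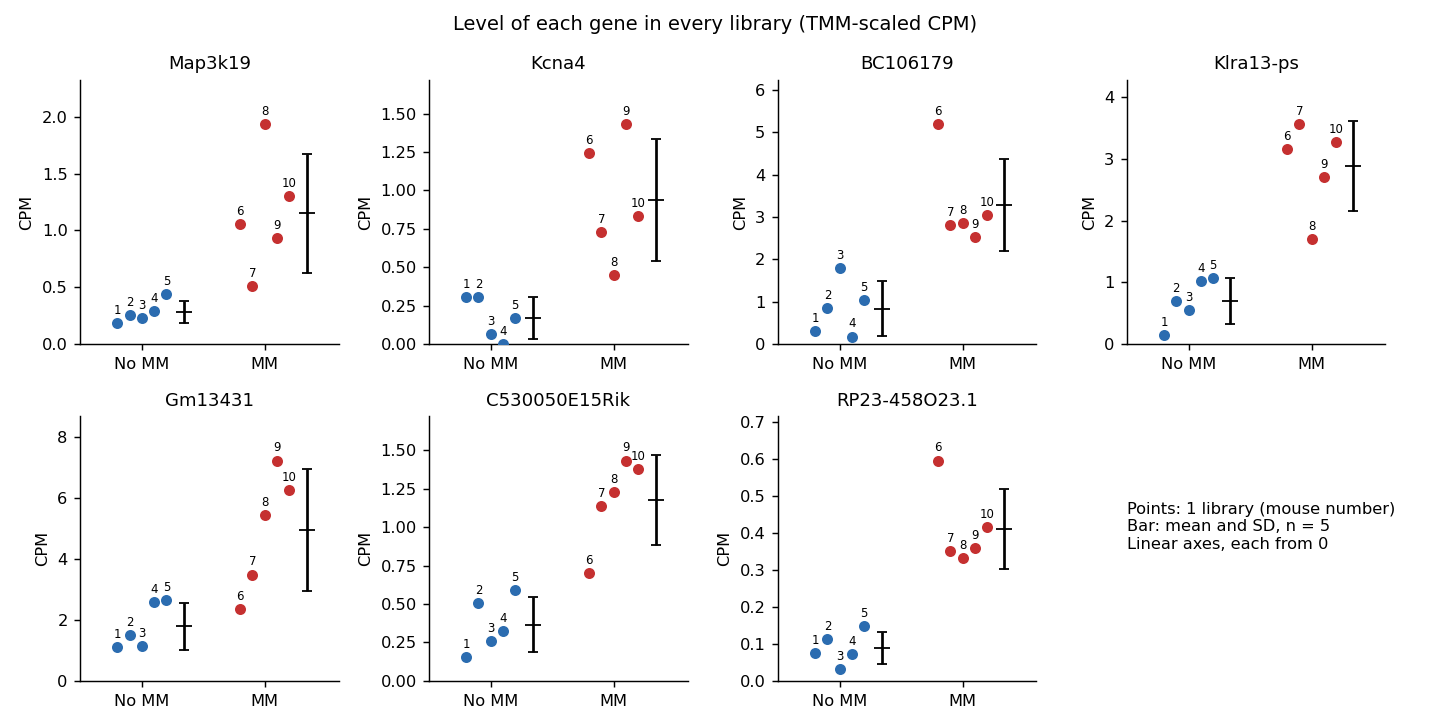
TMM-scaled CPM of the 7 genes, with 1 point per library labelled by mouse number, for No MM (blue) and MM (red). Bars give the mean and SD of 5 libraries on linear axes that start at 0, and the groups overlap for Gm13431 only, where MM 6 (2.35 CPM) lies below No MM 4 and No MM 5.

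The 118 became 409 of 16600 genes without No MM 3 and No MM 4, 580 without No MM 5, 443 without MM 6, 239 without No MM 2, and 413 when libraries were scaled by their totals alone. In each of these settings at least 6 of the 7 genes had groups apart. Leaving out libraries can hardly make groups that are apart overlap, so this is no support. Among the 1723 tested genes with a mean under 1 CPM, 23 (1.33%, or 0.142% of all tested genes) had all MM libraries above all No MM libraries, and Kcna4, Map3k19, C530050E15Rik and RP23-458O23.1 were 4 of these. All 7 genes passed the filter, which asked for about 0.29 CPM in at least 5 libraries. All 5 MM libraries reached that level for each gene. In No MM it was reached by 5 libraries for Gm13431, 4 for Klra13-ps, 3 for BC106179, 2 for C530050E15Rik, 1 each for Map3k19 and Kcna4, and none for RP23-458O23.1. A gene that passes through its high group alone has to differ, so the number that passed is no support.

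The question of whether any gene differed between MM and No MM was addressed by the quasi-likelihood test of edgeR across the 16186 genes, with Benjamini-Hochberg adjustment. No gene had an adjusted p under 0.05 in either direction (0% higher and 0% lower), while 617 (3.81%) were higher and 1664 (10.3%) lower at an unadjusted p under 0.05. DESeq2 called 34 genes higher and 155 lower on the same counts. The median log2 fold change of all tested genes was -0.027.

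Ranked by mean CPM, the 7 genes lay between percentile 0.105 (RP23-458O23.1) and percentile 22.1 (Gm13431) of the tested genes. Per length the order differed. The mean deposited FPKM (fragments scaled by gene length and library size) over 10 libraries was 0.128 for Kcna4, 0.196 for Map3k19, 0.218 for C530050E15Rik, 0.543 for BC106179, 1.16 for RP23-458O23.1, 2.39 for Klra13-ps and 7.59 for Gm13431. Gm13431, whose length in the table is 476 bases, thus stood at percentile 53.2 per length, so low abundance holds for it by read number and not by level per length. The other 6 stood between percentile 1.54 and percentile 29.

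**Figure D2:**
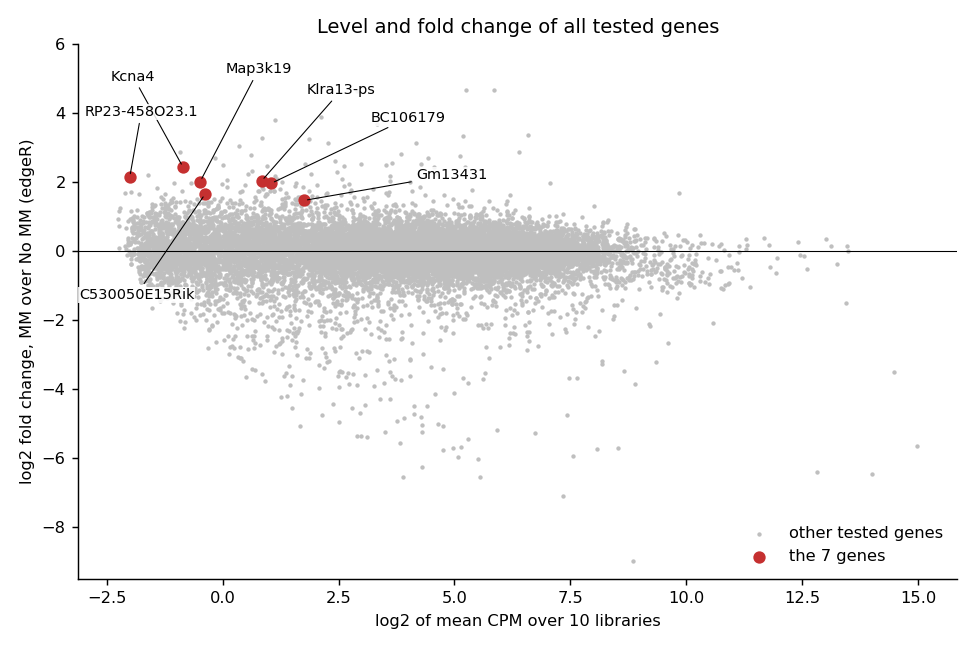
Log2 fold change (MM over No MM, edgeR) against log2 of the mean CPM over 10 libraries for all 16186 tested genes (grey), with the 7 genes in red. All 7 lie in the left part of the plot, with fold changes of 1.47 to 2.43 on the log2 scale.

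Kcna4 (ENSMUSG00000042604; GRCm38, chr2:107290639-107298502, plus strand) encodes Kv1.4, a voltage-gated potassium channel subunit that gives a rapidly inactivating current. In No MM libraries 1 to 5 it received 8, 11, 2, 0 and 7 reads, and in MM libraries 6 to 10 it received 48, 27, 19, 52 and 32. All MM libraries were above all No MM libraries, and the 0 in No MM 4 allows up to 0.109 CPM. Mean levels were 0.17 ± 0.139 CPM in No MM and 0.937 ± 0.397 CPM in MM (SD, n = 5 each), a log2 fold change of 2.43 (SE 0.66), the largest of the 7 with all libraries. Without No MM 3 and No MM 4, which held the fewest reads of this gene, it was 1.82 (SE 0.49), below those of BC106179, Klra13-ps and Map3k19.

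The other channel genes are rows of the same fit. Of 16 further genes of the Kv1 and Kv4 channels and their accessory subunits in the table, 12 were tested, 7 had a positive and 5 a negative log2 fold change, and none had an unadjusted p under 0.05. Their median log2 fold change was 0.19. Those with the smallest p were Kcnab3, a channel beta subunit, at -1.24 (SE 0.57), Kcna5 at -1.24 (SE 0.63), Kcnd1 at 0.46 (SE 0.25) and Kcna3 at 0.74 (SE 0.41), with adjusted p of 0.36 to 0.424 in edgeR. Without No MM 3 and No MM 4 Kcnab3 was at -0.11 (SE 0.41). The closest sequence match of Kcna4 was Kcna2, at 73% identity over 1226 bases, and no stretch of 76 bases, the read length, was shared with another transcript.

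Markers of the cells in which Kv1.4 is known overlapped between groups in their sums. Neuronal markers summed to 6.84 to 65 CPM in No MM and 3.9 to 9.5 CPM in MM, and No MM 3 and No MM 4 were the highest. Syt1, a synaptic vesicle gene, was at 45.7 and 29.2 CPM in these libraries and at most 0.413 CPM in the other 8. Of the 3 neuronal markers tested, Map2 (-1.93, SE 0.78) and Tubb3 (-1.28, SE 0.46) were lower in MM at an unadjusted p under 0.05, with adjusted p of 0.325 and 0.315 in edgeR. Over all tested genes 10.3% were lower at that unadjusted p. Without No MM 3 and No MM 4 Map2 was at 0.05 (SE 0.51) and Tubb3 at -1.59 (SE 0.47), and Rbfox3 was at -0.01 (SE 0.43) with all libraries. Snap25 and Nefl received at most 7 and 2 reads.

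Cardiac markers summed to 2.67 to 19.1 CPM in No MM and 2.86 to 6.42 CPM in MM. Of 6 markers, 4 were tested, all with a negative log2 fold change and none with an unadjusted p under 0.05. Tnni3, a troponin gene, reached 346 reads and Actc1, a cardiac actin gene, 170 reads in No MM, while Nppa had at most 1. Tnni3 turned from -0.83 (SE 0.83) to 1.53 (SE 0.55, adjusted p = 0.643, edgeR) without No MM 3 and No MM 4. The part of neurons and heart muscle in the Kcna4 level was not tested.

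Map3k19 (ENSMUSG00000051590; GRCm38, chr1:127815253-127840321, minus strand) received 5, 9, 7, 8 and 18 reads in No MM libraries 1 to 5 and 41, 19, 82, 34 and 50 in MM libraries 6 to 10. The nearest libraries, No MM 5 at 0.441 CPM and MM 7 at 0.513 CPM, differed by 1.16 times. Mean levels were 0.28 ± 0.097 and 1.15 ± 0.525 CPM (SD, n = 5 each). The log2 fold change was 2.01 (SE 0.41), and 1.91 (SE 0.51) without No MM 3 and No MM 4. The variance between mice was 1.19 times the mean count in No MM and 8.47 times in MM, where MM 8 was highest, and counting error alone gives 1.

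Of the rest of the MAP3K family, 19 of 20 table entries were tested, where Map3k4 has 2 entries. Among them 11 had a positive and 8 a negative log2 fold change, with a median of 0.05. At an unadjusted p under 0.05 none was higher and 3 were lower, against 3.81% and 10.3% of all tested genes. These were Map3k14, the kinase of noncanonical NF-kappaB signaling, at -2.19, Map3k13 at -1.58 and Map3k10 at -0.97, each with an adjusted p of 0.315 in edgeR. Map3k14 was at 262 and 316 CPM in No MM 3 and No MM 4 and at 15 to 21.7 CPM in the other No MM libraries. Without these 2 libraries its log2 fold change turned to 0.5 (SE 0.21, adjusted p = 0.643), Map3k13 was at -0.09 (SE 0.32) and Map3k10 at -0.34 (SE 0.26). At an unadjusted p under 0.05, 2 of the 19, Map3k14 among them, were then higher and none was lower. Over all genes these shares were 2.51% and 3.37%. Of the 19, 15 then had a positive and 4 a negative log2 fold change, with a median of 0.22.

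Airway epithelial markers were low, at 0.609 to 2.36 CPM summed in No MM and 0.685 to 2.33 CPM in MM, and overlapped. Ccdc39 and Foxj1, both genes of ciliated cells, reached 26 and 36 reads in No MM and 39 and 22 in MM. Scgb1a1, the club cell secretory gene, had at most 3. Macrophage markers were abundant and overlapped, at 839 to 2690 CPM in No MM and 1140 to 3120 CPM in MM. MM 8 had the highest sum and the highest Map3k19, whereas No MM 1 had the highest sum of its group and the lowest Map3k19. The part of these cells in the Map3k19 level was not tested.

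Klra13-ps (ENSMUSG00000030178; GRCm38, chr6:130291161-130306432, minus strand) is a transcribed pseudogene of the Ly49 family, lectin-like receptors that let NK cells sense class I MHC molecules. It lies between its relatives Klra10 and Klra3 on the same strand. Its closest relative by sequence was Klra7, which shares 778 bases in an alignment of the whole 850-base transcript, with 69 substitutions. Positions 624 to 825 of the transcript are printed because they hold the longest run identical to Klra7, at positions 664 to 785, with capitals for bases that differ from Klra7 (GENCODE M21 transcript, GRCm38).
Klra13-ps: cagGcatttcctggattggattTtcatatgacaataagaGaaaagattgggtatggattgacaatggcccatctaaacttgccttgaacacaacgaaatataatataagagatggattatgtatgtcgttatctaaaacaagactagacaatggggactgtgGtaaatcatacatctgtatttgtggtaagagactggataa

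This run of 122 bases is longer than a read, so a read wholly within it matches both genes, and only its mate could separate them. It supplies 47 of the 775 windows of 76 bases in the transcript (6.1%), all others being found in no other annotated transcript. Klra13-ps received 4, 25, 17, 28 and 44 reads in No MM libraries 1 to 5 and 122, 132, 72, 98 and 126 in MM libraries 6 to 10. The groups were apart by 1.58 times between No MM 5 and MM 8. Mean levels were 0.7 ± 0.376 and 2.88 ± 0.73 CPM (SD, n = 5 each), a log2 fold change of 2.03 (SE 0.46), or 2.12 (SE 0.56) without No MM 3 and No MM 4.

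Klra7 itself received 25 to 97 reads in No MM and 72 to 166 in MM, with a log2 fold change of 0.78 (SE 0.41, adjusted p = 0.405, edgeR), or 0.63 (SE 0.46) without No MM 3 and No MM 4. Per 100 Klra7 reads there were 16 to 89.8 Klra13-ps reads in No MM and 79.5 to 147 in MM. These ranges overlap through MM 7 (79.5) and No MM 5 (89.8) alone. Pooled over the libraries of each group, there were 48.4 Klra13-ps reads per 100 Klra7 reads in No MM and 113 in MM.

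The other Ly49 genes had positive fold changes that did not pass the test. All 10 tested of 13 had a positive log2 fold change, with a median of 0.87, but none had an adjusted p under 0.05, 3 had an unadjusted p under 0.05 and none had groups apart. Over all tested genes 3.81% were higher at that p, and 0.729% had groups apart. Without No MM 3 and No MM 4 none of the 10 had an unadjusted p under 0.05, and their median was 0.63. The 4 with the smallest p were Klra2 at 1.51 (SE 0.53, adjusted p = 0.315), Klra14-ps at 1.22 (SE 0.5, adjusted p = 0.331), Klra8, the Ly49H receptor, at 1.37 (SE 0.57, adjusted p = 0.332) and Klra1 at 0.86 (SE 0.42, adjusted p = 0.385), all in edgeR. The summed level of the list was highest in MM 8 (214 CPM), which was the lowest MM library for Klra13-ps itself. That sum was mostly Klra2 (122 CPM) and Klra17 (81.6 CPM), so it says little about the other Ly49 genes.

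Other lectin-like receptor genes with Klr symbols were described in the same way. Their list was named for the NK gene complex, but whether each gene, Klrg2 among them, lies in that complex was not tested. Of 13 tested, 12 had a positive log2 fold change, with a median of 1.09. None passed the adjusted threshold, 6 were higher and 1 lower at an unadjusted p under 0.05 (3.81% and 10.3% of all tested genes), and 3 had groups apart (0.729% of all). The lower gene was Klrg2 (-3.51, SE 1.42), at 21.1 and 30.7 CPM in No MM 3 and No MM 4. The other No MM libraries held at most 0.422 CPM of it. Without No MM 3 and No MM 4 Klrg2 was at 1.48 (SE 0.87), and all 13 had a positive log2 fold change. Of these, 2 were then higher at an unadjusted p under 0.05, against 2.51% of all genes, and the median was 0.75. Klri1 (1.65, SE 0.44), Klrd1, the CD94 chain (1.39, SE 0.42), Klrk1, the NKG2D receptor (1.14, SE 0.4), and Klrc2 (1.56, SE 0.56) each had an adjusted p of 0.315 in edgeR.

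NK cell markers as a whole overlapped between groups, with summed levels of 25.7 to 82 CPM in No MM and 56.1 to 115 CPM in MM and a median log2 fold change of 0.77. Of the 8 markers, 3 had an unadjusted p under 0.05, all higher, namely Klrd1, Ncr1 (1.4, SE 0.45) and Klre1 (1.09, SE 0.46), while Nkg7 (0.22, SE 0.4) and Gzma (-0.08, SE 0.47), both genes of cytotoxic granules, were near 0. Over all tested genes 3.81% were higher at that p. Without No MM 3 and No MM 4, 2 of the 8 were higher, against 2.51% of all genes, and the median was 0.38. None of the 8 was at 0 in all libraries. The lowest sums were those of No MM 3 and No MM 4, which were not the lowest in Klra13-ps, whereas No MM 1, with the highest NK sum of its group, had the fewest Klra13-ps reads. That sum of No MM 1 was mostly Nkg7 (66 CPM), so it says little about the other NK markers. For the other lectin-like receptor genes described above, No MM 1 had the lowest sum of all libraries (19.1 CPM). The part of NK cells in the level of Klra13-ps was not tested.

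**Figure D3:**
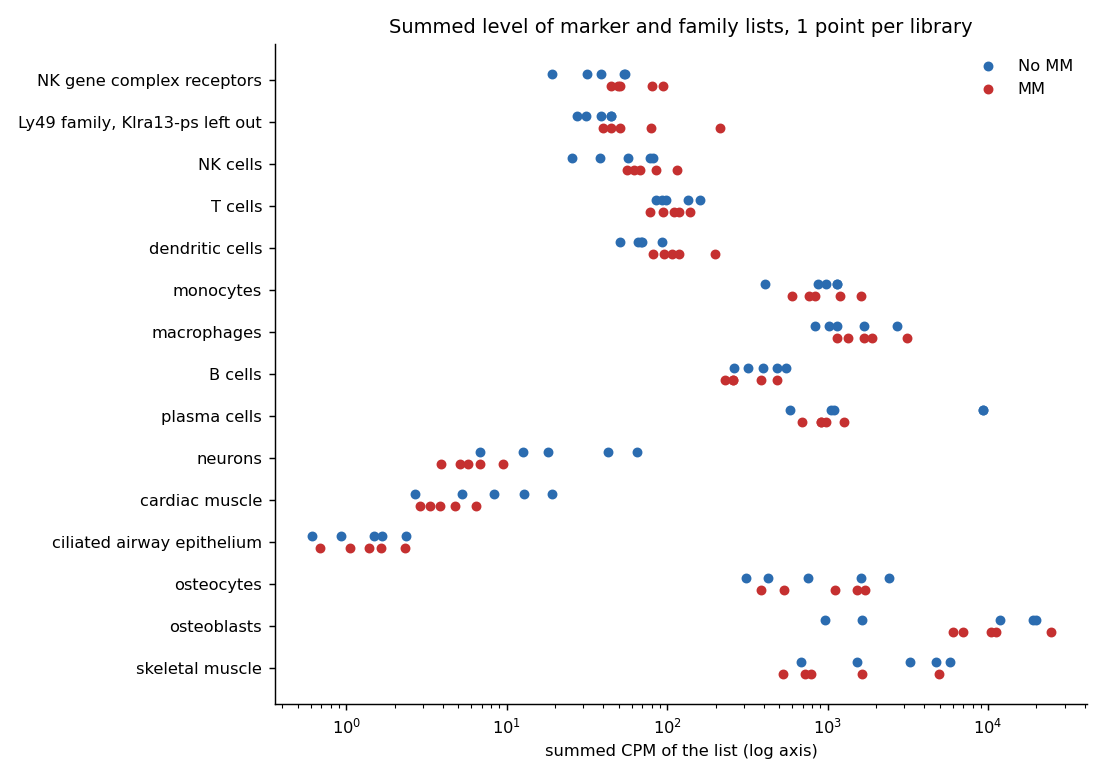
Summed CPM of marker and gene family lists on a log axis, 1 point per library, No MM in blue and MM in red. The groups overlap in every list shown, NK cell markers at 25.7 to 82 against 56.1 to 115 CPM among them, and the 2 highest plasma cell points belong to No MM 3 and No MM 4.

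RP23-458O23.1 (ENSMUSG00000100349; GRCm38, chr1:101880506-101880741, minus strand; Gm28188 in GENCODE M21) is a processed pseudogene of 1 exon and 236 bases, that is, a copy of a spliced transcript set back into the genome. Its sequence matched part of the transcript of Ankrd37, a gene for an ankyrin repeat protein. It is printed whole, as the differences decide whether reads can be told apart, with capitals for the 23 bases that differ from Ankrd37 and its first 7 bases outside the alignment.
RP23-458O23.1: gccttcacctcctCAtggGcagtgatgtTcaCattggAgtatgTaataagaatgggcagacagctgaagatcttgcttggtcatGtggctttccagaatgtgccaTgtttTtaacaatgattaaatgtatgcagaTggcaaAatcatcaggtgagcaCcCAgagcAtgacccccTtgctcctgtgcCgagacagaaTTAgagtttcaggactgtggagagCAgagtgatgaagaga

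Of 229 aligned bases, 206 are identical, and the longest identical run is 40 bases (positions 45 to 84), shorter than a read of 76 bases. Every full-length read within the pseudogene therefore spans at least 1 differing base, although an aligner that allows mismatches could still place some reads on either copy. It received 2, 4, 1, 2 and 6 reads in No MM libraries 1 to 5 and 23, 13, 14, 13 and 16 in MM libraries 6 to 10. In No MM, 3 of the 5 counts lie under the floor of 3 reads, and no count of one group reached the other.

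Mean levels of RP23-458O23.1 were 0.0881 ± 0.0435 CPM in No MM and 0.41 ± 0.108 CPM in MM (SD, n = 5 each). The log2 fold change was 2.14 (SE 0.4), and 1.8 (SE 0.43) without No MM 3 and No MM 4. The nearest libraries differed by 2.25 times, the widest gap of the 7 genes. The variances between mice were 0.759 and 1.01 times the mean count, where counting error gives 1, and at so few reads a difference between mice of a group was not detectable.

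Ankrd37 did not pass the test, with 4.92 ± 2.4 CPM in No MM and 3.2 ± 1.05 CPM in MM (SD, n = 5 each; log2 fold change -0.62, SE 0.41, adjusted p = 0.491, edgeR). It was highest in No MM 3 (7.08 CPM) and No MM 4 (7.3 CPM), and without them the log2 fold change was -0.11 (SE 0.4). Per 100 Ankrd37 reads there were 0.457 to 4.55 pseudogene reads in No MM and 8.02 to 26.7 in MM, 2 ranges that do not overlap, with No MM 3 and No MM 4 the lowest and No MM 5 the highest of No MM.

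**Figure D4:**
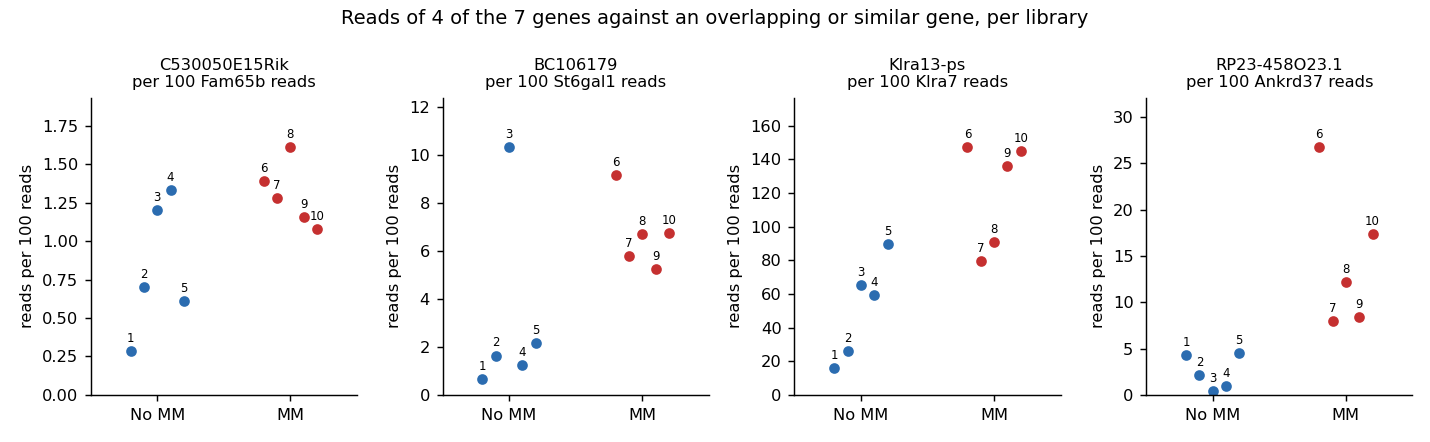
Reads of C530050E15Rik, BC106179, Klra13-ps and RP23-458O23.1 per 100 reads of an overlapping or similar gene, 1 point per library with its mouse number, on linear axes from 0. The groups are apart for RP23-458O23.1 over Ankrd37 (at most 4.55 against at least 8.02) and overlap in the other 3 panels.

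BC106179 (ENSMUSG00000045231; GRCm38, chr16:23220656-23225368, minus strand) is protein coding in the deposited table, but a processed transcript without coding sequence in GENCODE M21. It overlaps exons of 2 genes on the opposite strand, St6gal1, which encodes a sialyltransferase of glycoproteins, and B630019A10Rik. It received 8, 30, 56, 5 and 43 reads in No MM libraries 1 to 5 and 201, 104, 121, 92 and 117 in MM libraries 6 to 10. All MM libraries were above No MM 3, the highest of its group, by at least 1.4 times.

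Mean levels of BC106179 were 0.839 ± 0.653 CPM in No MM and 3.29 ± 1.08 CPM in MM (SD, n = 5 each), with variances of 18 and 12.6 times the mean count. The log2 fold change was 1.96 (SE 0.55), and 2.13 (SE 0.46) without No MM 3 and No MM 4. In MM, MM 6 stood at 5.2 CPM and the other 4 between 2.54 and 3.04 CPM.

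The library kit keeps strand, but the setting used for counting is not given in the sources used here. In the case that strand was not used, reads in the shared exons could not be told apart. Of 4053 windows of 76 bases in BC106179, 1634 (40.3%) are shared in antisense, 1508 of them with B630019A10Rik and 126 with St6gal1. No other gene shared a whole window, but BLAST aligned parts of BC106179 to 3358 other genes, these included. An aligner that allows mismatches could therefore place some reads elsewhere. B630019A10Rik received at most 9 reads in No MM and 15 in MM, below the filter, against up to 201 for BC106179. St6gal1 received 1181, 1829, 546, 405 and 1994 reads in No MM libraries 1 to 5 and 1738 to 2196 in MM, with a log2 fold change of 0.45 (SE 0.34, adjusted p = 0.551, edgeR), or -0.02 (SE 0.14) without No MM 3 and No MM 4. Per 100 St6gal1 reads there were 0.677 to 10.3 BC106179 reads in No MM and 5.22 to 9.15 in MM, and the 10.3 was that of No MM 3, where St6gal1 was low.

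Gm13431 (ENSMUSG00000087187; GRCm38, chr2:36216777-36222934, plus strand) is a long intergenic noncoding RNA that starts upstream of Ptgs1, the gene of cyclooxygenase 1, on the same strand, with 7.49 kb between them. It received 29, 53, 35, 71 and 108 reads in No MM libraries 1 to 5 and 91, 129, 230, 262 and 241 in MM libraries 6 to 10. MM 6, at 2.35 CPM, was below No MM 4 (2.58 CPM) and No MM 5 (2.65 CPM), so its groups overlapped, and only 4 of 5 MM libraries were above all of No MM. Mean levels were 1.79 ± 0.766 and 4.95 ± 2 CPM (SD, n = 5 each), with a log2 fold change of 1.47 (SE 0.4), or 1.48 (SE 0.45) without No MM 3 and No MM 4.

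Ptgs1 had a log2 fold change of 0.36 (SE 0.22, adjusted p = 0.469, edgeR), and Gm13429, on the other side, received at most 2 reads in any library. Between MM mice the coefficient of variation of its CPM was 40.4%, against 24.8% to 45.6% for the other 6 genes. No window of 76 bases in it was shared with another transcript.

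C530050E15Rik (ENSMUSG00000097838; GRCm38, chr13:24631918-24638567, minus strand) is a long noncoding RNA of 2 exons that lies inside Fam65b (Ripor2 in GENCODE M21), a gene transcribed from the opposite strand, with no exon base in common. It received 4, 18, 8, 9 and 24 reads in No MM libraries 1 to 5 and 27, 42, 52, 52 and 53 in MM libraries 6 to 10. The groups were apart by 1.19 times between No MM 5 and MM 6. Mean levels were 0.366 ± 0.179 and 1.17 ± 0.291 CPM (SD, n = 5 each), with a log2 fold change of 1.65 (SE 0.39), or 1.45 (SE 0.47) without No MM 3 and No MM 4.

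Fam65b, which encodes an inhibitor of the RhoA GTPase, had a log2 fold change of 0.8 (SE 0.42, adjusted p = 0.405, edgeR), or 0.32 (SE 0.32) without No MM 3 and No MM 4. It was lowest in No MM 3 and No MM 4, with 666 and 677 reads, and highest in MM 10, with 4905. Per 100 Fam65b reads there were 0.287 to 1.33 reads of C530050E15Rik in No MM and 1.08 to 1.61 in MM, so the groups overlapped on this ratio, by way of No MM 3 and No MM 4. Unspliced Fam65b RNA crosses the lncRNA, and its part in these reads was not tested. BLAST aligned parts of C530050E15Rik to 2726 other genes, although no window of 76 bases was shared with another transcript. On the left side, Gm11346, on the same strand at 26.99 kb, had a log2 fold change of 1.24 (SE 0.44, unadjusted p = 0.0167, adjusted p = 0.315, edgeR).

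**Figure D5:**
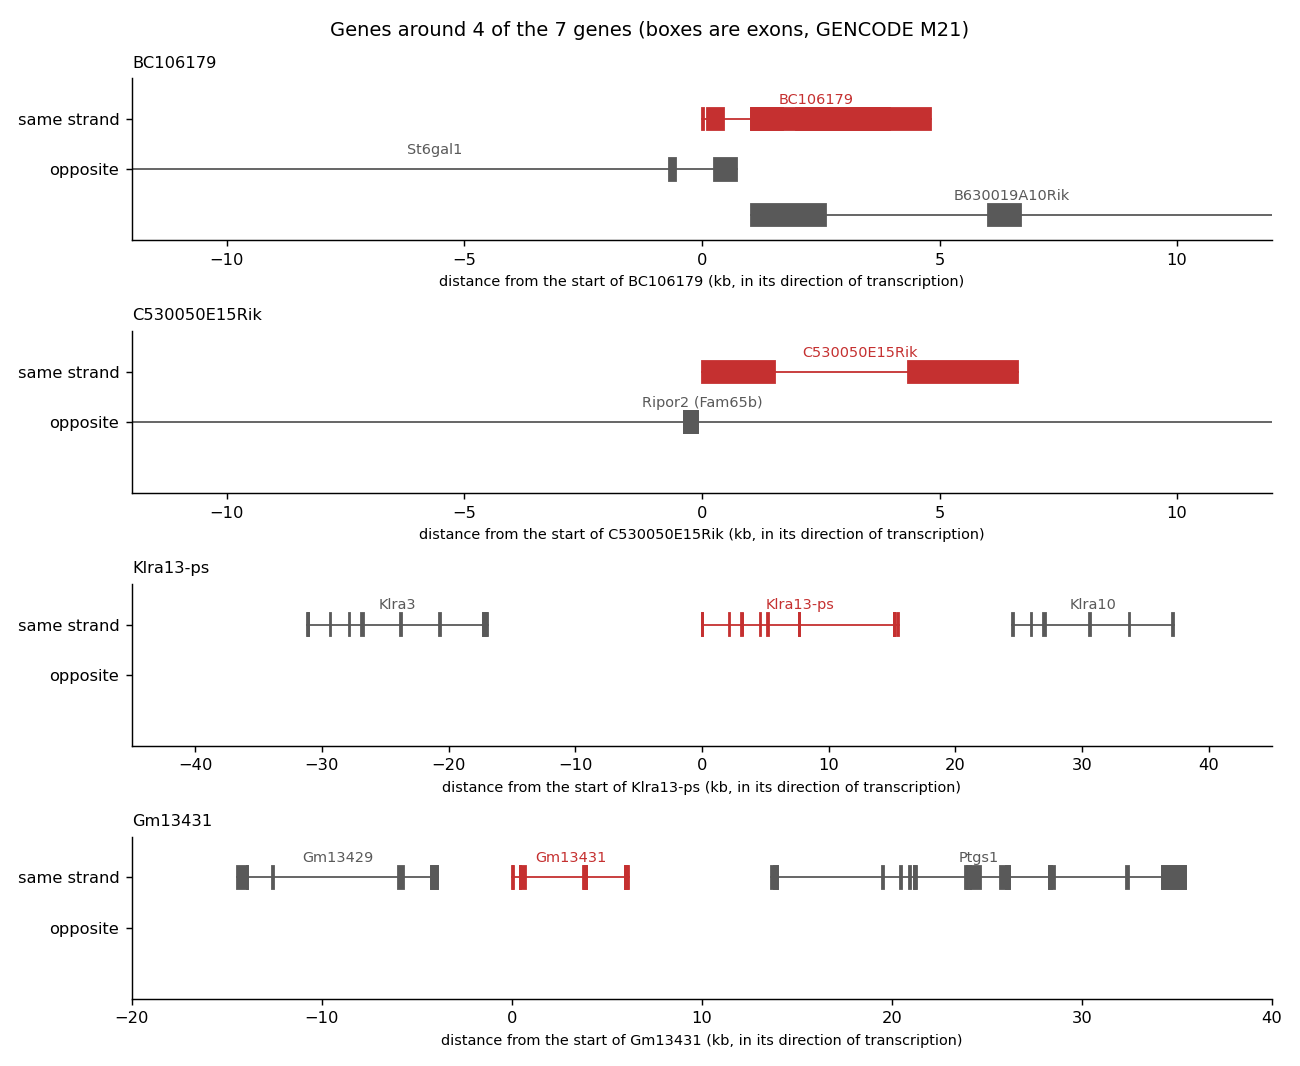
Maps of the neighborhoods of BC106179, C530050E15Rik, Klra13-ps and Gm13431 (red) with nearby genes (grey) by distance in kb from the start of each gene, in its direction of transcription, with boxes for exons. BC106179 meets exons of both opposite-strand genes, while the exons of C530050E15Rik meet none of Fam65b.

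No neighbor of the 7 genes, overlapping or nearest on either side, passed the adjusted threshold in edgeR. Of the remaining ones that were tested, Ccnt2 and Rab3gap1 beside Map3k19 had log2 fold changes of 0.33 (SE 0.35) and -0.19 (SE 0.12), and Arl14ep beside Kcna4 had 0.18 (SE 0.22). Masp1 beside BC106179 had -0.61 (SE 0.6), Klra3 beside Klra13-ps had 0.58 (SE 0.3), and RP23-458O23.2 beside RP23-458O23.1 had 0.64 (SE 0.71).

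Promoter windows of 300 bases were found in RefSeq (GRCm38.p6) for Kcna4 and BC106179, 2 of the 7. Neither held the letters of the IRF motif, the GAS motif of STAT factors (TTCNNNGAA) or the AP-2 motif (GCCNNNGGC), searched on both strands. Of 32817 promoters, 3.4%, 8.3% and 16.6% hold them.

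Within groups the 7 genes did not vary as 1 block. Over the deviations from group means of log2 CPM in 10 libraries, Pearson's r between pairs ran from -0.36 (BC106179 and Gm13431) to 0.75 (Gm13431 and C530050E15Rik), and r was 0.62 for Klra13-ps and C530050E15Rik. These points share depth and scaling, and at counts this low they describe these libraries only. No MM 5 was the highest of its group for 5 of the 7 genes, and No MM 1 the lowest for 4.

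Among genes with a mean of at least 50 reads, those closest to each member on the same measure over 10 libraries did not include a member or a marker. They were Pdlim7 (r = 0.989), Cnn3 and Cmbl for Kcna4, Usp6nl (0.905), A630033H20Rik and Trim13 for Map3k19, and Mpp7 (0.966), Mospd1 and Gm8113 for Klra13-ps. For BC106179 they were Rin2 (0.906), Nt5e and Kcne3, for Gm13431 Ggnbp2 (0.962), Abcb6 and Rexo1, and for C530050E15Rik Ogfrl1 (0.977), Zfp644 and Pdzd8. Each is the top of about 13917 correlations. RP23-458O23.1, with a mean of 9.4 reads, was too sparse for this measure.

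Of the 21 marker lists examined beside the 7 genes, none held a gene with an adjusted p under 0.05 in edgeR. Dendritic cell markers summed to 50.5 to 93.4 CPM in No MM and 81.5 to 199 CPM in MM, with 2 of 8 higher at an unadjusted p under 0.05, Clec9a (1.28, SE 0.33) and Zbtb46 (0.43, SE 0.19), which were at 1.26 (SE 0.39) and 0.25 (SE 0.19) without No MM 3 and No MM 4. Monocyte markers summed to 407 to 1150 and 598 to 1620 CPM, with 2 of 5 higher at that p, Ccr2 (1.08, SE 0.47) and Ms4a6c (0.94, SE 0.42). T cell markers summed to 84.6 to 161 and 78.3 to 139 CPM, with 1 of 9 lower, Cd28 (-1.75, SE 0.7). B cell markers summed to 262 to 549 and 228 to 480 CPM, with 1 of 8 lower, Blnk (-2.13, SE 0.71). Without No MM 3 and No MM 4 no monocyte, T cell or B cell marker passed that p. Over all tested genes with all libraries, 3.81% were higher and 10.3% lower at that p. Plasma cell markers summed to 583 to 9280 CPM in No MM and 695 to 1270 CPM in MM, with all 7 lower in MM at an unadjusted p under 0.05. When No MM 3 and No MM 4 were left out, 1 of 7 was lower at that p, against 3.37% of all genes. The part of any of these cells in the levels of the 7 genes was not tested.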

How the data were processed

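RNA-seq libraries (TruSeq Stranded Total RNA, 76-base paired ends) were prepared from osteocytes of 5 No MM and 5 MM mice. The submitters' processing notes name FastQC 0.11.5 and STAR. The counting program, its strand setting and the annotation are not given in the sources used here. The authors deposited whole-number read counts per gene and library, and FPKM values that they derived by gene length. Their normalized signal, and their log2 fold changes and p-values, which hold their own comparison, were not used.

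Counts were analyzed in R 4.3.3 with edgeR 4.0.16 (filterByExpr, TMM, glmQLFit and glmQLFTest, no covariates, Benjamini-Hochberg over 16186 genes). FPKM served only to rank levels per length. Log2 CPM used a prior count of 2. Fold changes are MM over No MM, and their SE comes from the fit. The procedure was tested on simulated data. The labels name 1 mouse per library, and counting intervals and floors cover counting error only. Coordinates are those of the table; GENCODE M21, on GRCm38, lists 22284 of its genes, 99.88% with an overlapping span. Transcripts were aligned with BLAST 2.17.0. Alternatives were DESeq2 1.42.0, with and without a prior, other scalings and filters, immunoglobulin genes left out, and libraries left out.

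The 7 genes and all lists were chosen with earlier results of these data known. Named genes were the 7, their neighbors, at most 4 genes per list by smallest p, markers at 0 in all libraries (none was), and the 3 genes most like each. Sequence relatives and further markers and list genes (Klra17, Klrg2, Nkg7, Gzma, Nefl, Snap25, Syt1, Rbfox3, Tnni3, Actc1, Nppa, Ccdc39, Foxj1, Scgb1a1) were named after their values were seen.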

Additional observations from a re-analysis of the deposited data

Results flagged for a closer look

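In MM, 4 sets of 5 libraries had a library whose gap to its nearest neighbor exceeded 0.71 of the range, among 64 sets examined, where chance gives about 3.2. BC106179 was 5.2 CPM in MM 6 against 2.54 to 3.04 CPM in the other 4. The summed Ly49 genes without Klra13-ps were 214 CPM in MM 8 against 39.6 to 78.9 CPM, and Klra2 at 122 CPM and Klra17 at 81.6 CPM made up most of it. Osteoblast markers summed to 24500 CPM in MM 6 against 6060 to 11200 CPM. Skeletal muscle markers summed to 4970 CPM in MM 6 against 530 to 1630 CPM. MM 6 was also the MM library with the lowest Gm13431 and C530050E15Rik and the highest RP23-458O23.1.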

How the results depend on the processing

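The log2 fold changes of the 7 genes stayed positive in every alternative in which they were tested. They ran from 1.56 to 2.3 for Map3k19, 1.56 to 2.75 for Kcna4, 1.42 to 2.44 for BC106179, 1.62 to 2.33 for Klra13-ps, 1.21 to 1.77 for Gm13431, 1.34 to 1.92 for C530050E15Rik and 1.51 to 2.42 for RP23-458O23.1, and each lowest value, 1.51 for RP23-458O23.1 included, came from DESeq2 with a prior on fold changes. Scaling by library totals alone moved the median of all genes to 0.298, and the highest values of 5 of the genes, which came from that scaling, are to be read relative to it. When at least 10 counts were asked of every library, 1 of the 7 genes was left (Gm13431), so that 0 had groups apart, 1 lay under the median level, and 2 sets had a variance above the mean. With MM 6 left out, all 7 genes had groups apart, and with any other library left out 6 had. Leaving out a library can hardly make groups that are apart overlap, so these counts are no support. In the same settings 130 to 580 of all tested genes had every MM library above every No MM library. DESeq2 called 34 genes higher and 155 lower, among them 1 marker gene higher (Clec9a) and 3 lower (Xbp1, Irf4 and Mzb1), and with a prior 8 higher and 4 lower, against 0 with edgeR. The cause of this difference was not tested. Some list genes that the text names turned sign in edgeR without No MM 3 and No MM 4. Among these, Irf4 turned from -3.68 to 0.08, Klrg2 from -3.51 to 1.48 and Map3k14 from -2.19 to 0.5. Tnni3 turned from -0.83 to 1.53 and Map2 from -1.93 to 0.05. Without the same libraries Xbp1 went from -2.11 to -0.44, and Mzb1 from -1.35 to -1.33. No paired analysis was possible because the labels number the mice 1 to 10 and match none between groups. Depth limits the lowest levels: the 2 reads of RP23-458O23.1 in No MM 1 have an exact Poisson 95% interval of 0.242 to 7.22 reads.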
